A study of Mus musculus with 28 samples.

Results

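A set of 9 cell-surface genes of leukocyte adhesion was followed in the fat of mice fed conjugated linoleic acid (CLA): Itgam, Itgax, Itgal, Itgb2, Itga4, Itgav, Icam1, Vcam1 and Cd44. They are 9 of the 18193 genes tested. The platform annotation gives them 23 probe sets that name 1 gene each, and each gene was read from its probe set with the highest mean over all 28 arrays, a choice that did not use the diet. The mice were C57BK/6J (the labels' spelling) aged 9 weeks, and their diet was either the control or one with trans-10 cis-12 conjugated linoleic acid at 0.5%, an isomer known to deplete lipid from mouse white fat. Retroperitoneal fat pads were taken on days 1, 2, 3, 4, 7, 10 and 17, pads of 10 mice were pooled, and biotin-labelled cRNA from 15 µg of total RNA was hybridised to an Affymetrix array. Diet and day define 14 groups of 2 arrays. The series text speaks of replicated pools, yet its total of mice gives 10 per group, 1 pool for the paired arrays. The p-values within a day, and those that compare days in the fit of all 28 arrays, thus measure the spread between arrays, which may be technical. For this reason the main comparison over all 7 days takes the day as the unit of replication. All values are log2 expression, so a difference of 1 is a 2-fold change, and levels are compared only within a probe set.

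Integrins are paired receptors of an alpha and a beta subunit that hold cells to each other and to matrix. The leukocyte integrins share the beta-2 subunit CD18, the product of Itgb2, which pairs with CD11a (Itgal) to form LFA-1, with CD11b (Itgam) to form Mac-1 and with CD11c (Itgax) to form a complement receptor. These alpha chains need CD18 to reach the cell surface. Their ligand ICAM-1 (Icam1) and the alpha-4 integrin ligand VCAM-1 (Vcam1) stand on activated endothelium, and CD44 (Cd44) is the main surface receptor for hyaluronan. In fat, CD11b and CD11c are widely used to mark macrophages, and CD11c to mark those that gather in inflamed adipose tissue.

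Promoter sequences of 6 of the 9 genes were matched by symbol in RefSeq (GRCm38.p6). Those of Itgam, Itgax and Icam1 are shown because their largest differences fell on days 4, 17 and 1, and because Itgam and Itgax are neighbouring genes on chromosome 7. Each sequence is the 250 bases before the annotated start, 5′ to 3′ on the gene's strand, with motif matches in capitals.
Itgam, chr7:128062390-128062639, + strand: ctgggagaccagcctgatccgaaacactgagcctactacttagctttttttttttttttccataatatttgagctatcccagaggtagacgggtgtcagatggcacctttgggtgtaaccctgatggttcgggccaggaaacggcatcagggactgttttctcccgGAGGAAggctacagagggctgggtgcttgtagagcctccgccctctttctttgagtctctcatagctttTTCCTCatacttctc
Itgax, chr7:128129300-128129549, + strand: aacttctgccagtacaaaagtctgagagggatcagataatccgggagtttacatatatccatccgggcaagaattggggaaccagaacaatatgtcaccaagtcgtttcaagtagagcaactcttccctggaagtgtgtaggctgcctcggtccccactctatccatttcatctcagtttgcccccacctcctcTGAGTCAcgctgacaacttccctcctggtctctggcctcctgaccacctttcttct
Icam1, chr9:21015690-21015939, + strand: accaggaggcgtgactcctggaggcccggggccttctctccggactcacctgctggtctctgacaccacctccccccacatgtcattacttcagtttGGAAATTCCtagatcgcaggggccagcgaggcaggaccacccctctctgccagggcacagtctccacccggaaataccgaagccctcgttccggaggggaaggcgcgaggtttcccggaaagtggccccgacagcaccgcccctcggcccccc
The motifs searched, on both strands and over 300 bases including the 50 after the start, were GGAANTTCC (NF-kB), TGANTCA (AP-1) and GAGGAA (PU.1), letters that were chosen after the sequences had been seen. Icam1 held the NF-kB letters from base -153 to -145 before the start, as did 0.928% of 32851 promoters of that length. Itgax held the AP-1 letters from -56 to -50, as did 7.81% of promoters. Itgam held the PU.1 letters at -84 to -79 and, on the other strand, at -15 to -10 and again at 33 to 38 after the start, a motif present in 28.3% of promoters. The same PU.1 letters were matched in Itgav and Cd44, and none of the 3 motifs in Itga4. No matches overlapped each other. These are matches of letters and not measured binding sites.

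Arrays of a group correlated at 0.979 to 0.995 over all genes, and 1 array stood apart from its group. Along the CLA effect of the other days, where control arrays lay between -0.087 and 0.058 and CLA arrays of later days between 0.907 and 1.26, array 1 of control day 2 lay at 0.47, close to the CLA arrays of day 1 at 0.482 and 0.483. It was the highest of the 14 control arrays for 8 of the 9 genes, all but Itgav, and for 51.9% of the 3398 genes called higher over all days. The day 2 counts and differences are given with and without it. Over all 7 days the 9 genes were called without it too, with differences of 0.59 to 3.48. The tissue read as fat by its adipocyte genes: Slc2a4 averaged 9.58 and Lipe 10.45 on the control arrays. The deposited values carry no detection call, so no probe set can be called absent.

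All 9 genes were higher under CLA over the 7 days, by 1.49-fold for Itgal to 10.1-fold for Cd44. The calls are adjusted p-values under 0.05 in limma over the 7 daily differences, which 18.7% of all genes passed upwards and 19.8% downwards. The median difference of the 9 genes was 1.62, against -0.03 for all genes tested. Itgb2 and Cd44 were called higher on each of the 7 days, as were 0.901% of all genes. Only Cd44 had every CLA array above every control array, as did 0.83% of all genes. Without array 1 of control day 2, Itgb2 and Icam1 did so too (3 of 9, against 2.52% of all genes).

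**Figure D1:**
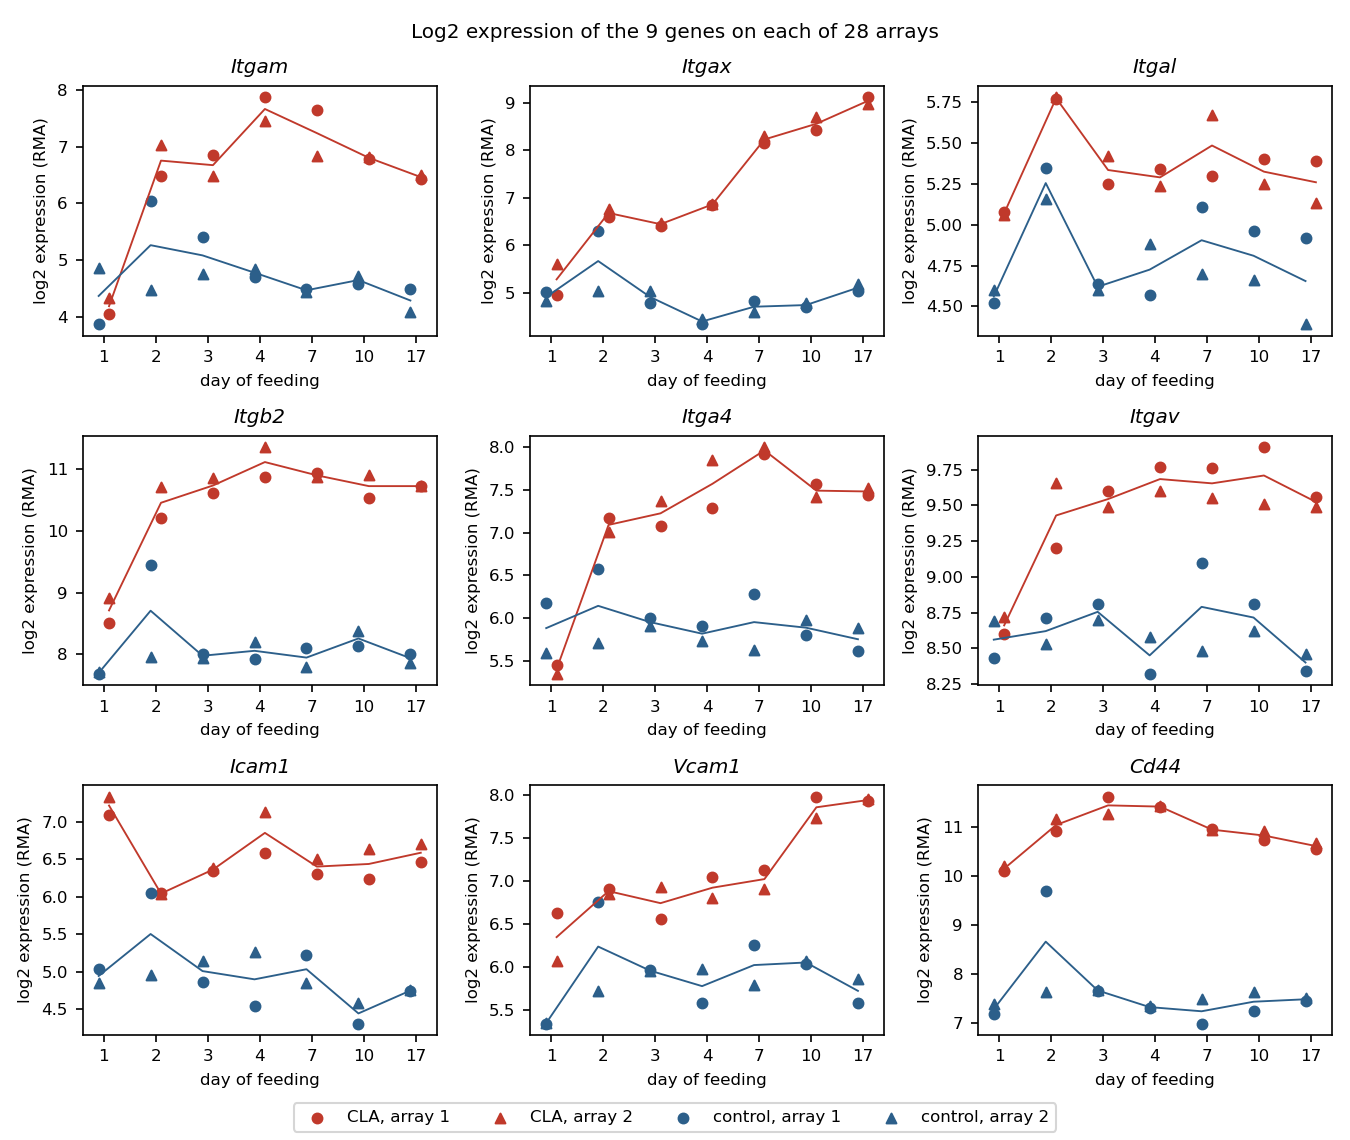
Log2 expression (vertical axis, a separate scale in each panel that does not start at 0) of the 9 genes on each of the 28 arrays by day of feeding (horizontal axis, days evenly spaced). Circles and triangles are the 2 arrays of a group, lines join group means, red is CLA and blue is control. The blue circle of day 2 is the highest control array in 8 of the 9 panels, and the Itgax line of CLA rises to 9.04 on day 17.

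Itgb2, the shared beta-2 chain, was 5.28-fold higher under CLA (2.40 ± 0.24, SE, n = 7 days; limma adjusted p = 9.24e-05). The CLA arrays of Itgb2 read 8.51 and 8.91 on day 1, 10.20 and 10.71 on day 2, 10.62 and 10.85 on day 3, 10.87 and 11.36 on day 4, 10.93 and 10.87 on day 7, 10.54 and 10.91 on day 10, and 10.73 and 10.72 on day 17. The control arrays of Itgb2 lay between 7.68 and 8.38, except for 9.45 on array 1 of day 2. Day 1 was the lowest CLA day, the level was near its plateau from day 2 on, and the day 1 arrays of CLA already lay above every control array but that of day 2. The daily difference grew from 1.01 ± 0.31 (2.02-fold) on day 1 to 3.06 ± 0.31 (8.34-fold) on day 4, and was 2.79 ± 0.31 on day 17.

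Itgam, the CD11b chain of Mac-1, was 3.58-fold higher over all days (1.84 ± 0.33; adjusted p = 0.00205) but did not rise on day 1. Its CLA arrays read 4.05 and 4.33 on day 1, 6.48 and 7.03 on day 2, 6.86 and 6.49 on day 3, 7.87 and 7.46 on day 4, 7.65 and 6.83 on day 7, 6.79 and 6.82 on day 10, and 6.43 and 6.50 on day 17. The control arrays read 3.87 and 4.87 on day 1 and 6.05 and 4.48 on day 2, and lay between 4.09 and 5.41 on the other days. The groups overlapped on day 1 and on no later day. The day 1 difference was -0.18 ± 0.39 (adjusted p = 0.829). The largest daily difference was 7.39-fold on day 4 (adjusted p = 1.61e-05), and that of day 17 was 4.52-fold.

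Itgax, the CD11c chain, was 5.19-fold higher over all days (2.38 ± 0.45; adjusted p = 0.00295), and its level went on rising to the last day. CLA arrays of Itgax read 4.96 and 5.61 on day 1, 6.59 and 6.77 on day 2, 6.41 and 6.48 on day 3, 6.85 and 6.87 on day 4, 8.16 and 8.29 on day 7, 8.42 and 8.69 on day 10, and 9.11 and 8.97 on day 17. Control arrays of Itgax lay between 4.34 and 5.19, except for 6.31 on array 1 of day 2. The groups overlapped on day 1 alone, and the arrays of days 7, 10 and 17 under CLA lay above all those of days 1 to 4. The difference was 0.37 ± 0.27 on day 1 (adjusted p = 0.414), 2.46 ± 0.27 on day 4 and 3.93 ± 0.27 on day 17, a 15.2-fold difference (adjusted p = 9.69e-09).

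Itgal, the CD11a chain of LFA-1, was 1.49-fold higher over all days (0.57 ± 0.05; adjusted p = 4.51e-05), with daily differences of only 0.51 to 0.71. Its CLA arrays lay between 5.06 and 5.78, with a median of 5.32, and its control arrays between 4.39 and 5.35, with a median of 4.68. The arrays of a day did not overlap on any of the 7 days. Single days passed the test on 4 of 7 occasions, days 3, 4, 7 and 17, and missed it on day 1 (adjusted p = 0.0625), day 2 (0.0873) and day 10 (0.0566).

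Itga4, the alpha-4 chain that binds VCAM-1 and fibronectin, was 2.39-fold higher over all days (1.26 ± 0.27; adjusted p = 0.0052). Its CLA arrays read 5.46 and 5.35 on day 1, below both control arrays of that day at 6.18 and 5.59. From day 2 on the CLA arrays of Itga4 lay between 7.01 and 8.0, above all 14 control arrays, whose highest was 6.58 on array 1 of day 2. The difference was -0.48 ± 0.26 on day 1 (adjusted p = 0.232) and passed the test upwards on each later day, up to 4.01-fold on day 7 (adjusted p = 1.44e-05). On day 1 the arrays of Itga4 did not overlap with CLA lower, as held for 22.4% of all genes.

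Itgav, the alpha-v chain that binds vitronectin and latent TGF-beta, was 1.80-fold higher over all days (0.85 ± 0.12; adjusted p = 6.86e-04). Its CLA arrays lay between 8.60 and 9.91, with a median of 9.56, and its control arrays between 8.32 and 9.10, with a median of 8.60. The CLA values of day 1, 8.60 and 8.72, lay among the control values, and those of all later days lay above every control array. The difference was 0.10 ± 0.20 on day 1 (adjusted p = 0.803), and from day 2 to day 17 it ranged from 0.79 to 1.24, called on each of those days.

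Icam1, the ligand of LFA-1 and Mac-1, was 3.07-fold higher over all days (1.62 ± 0.19; adjusted p = 2.03e-04) and had its largest difference on day 1. The CLA arrays of Icam1 read 7.10 and 7.34 on day 1, 6.05 and 6.04 on day 2, 6.34 and 6.39 on day 3, 6.58 and 7.13 on day 4, 6.31 and 6.50 on day 7, 6.24 and 6.64 on day 10, and 6.47 and 6.71 on day 17. The control arrays of Icam1 lay between 4.31 and 5.26, except for 6.05 on array 1 of day 2. The highest CLA value was on day 1, and the 2 diets overlapped on day 2 alone. The difference was 4.84-fold on day 1 (2.27 ± 0.28; adjusted p = 1.05e-05) and 1.84 ± 0.28 on day 17. On day 2 it was 0.54 ± 0.28 (adjusted p = 0.307), and 1.08 (adjusted p = 0.0114) without array 1 of the control group.

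Vcam1, the ligand of the alpha-4 integrins, was 2.34-fold higher over all days (1.23 ± 0.18; adjusted p = 8.09e-04), with its highest levels on the last 2 days. CLA arrays of Vcam1 read 6.62 and 6.07 on day 1, 6.91 and 6.85 on day 2, 6.55 and 6.93 on day 3, 7.04 and 6.80 on day 4, 7.13 and 6.91 on day 7, 7.98 and 7.73 on day 10, and 7.93 and 7.95 on day 17. Control arrays of Vcam1 lay between 5.34 and 6.25, except for 6.75 on array 1 of day 2. The arrays of days 10 and 17 under CLA lay above all other arrays, and the groups of a day did not overlap on any day. The difference was 2.00-fold on day 1 (adjusted p = 0.00868) and 4.66-fold on day 17 (adjusted p = 3.82e-06). The day 2 difference was 0.65 ± 0.26 (adjusted p = 0.138), and 1.16 (adjusted p = 0.00264) without array 1 of that control group.

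Cd44 was 10.1-fold higher over all days (3.33 ± 0.19; adjusted p = 8.81e-06) and was already 7.29-fold higher on day 1 (adjusted p = 1.9e-05). The CLA arrays of Cd44 read 10.10 and 10.20 on day 1, 10.91 and 11.17 on day 2, 11.62 and 11.26 on day 3, 11.41 and 11.42 on day 4, 10.95 and 10.94 on day 7, 10.74 and 10.91 on day 10, and 10.55 and 10.67 on day 17. The control arrays of Cd44 lay between 6.99 and 7.68, except for 9.69 on array 1 of day 2. Every CLA array lay above that array too, with the lowest CLA values on day 1 and the highest on days 3 and 4. The daily difference reached 4.09 ± 0.38 on day 4, a 17.0-fold difference (adjusted p = 2.29e-07), and was 3.12 ± 0.38 on day 17. On day 2 it was 2.38, and 3.41 without array 1 of the control group.

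Day by day, the genes that passed the test were Itgb2, Icam1, Vcam1 and Cd44 on day 1, and from day 3 on nearly all 9. The counts were 4 of 9 on day 1, 6 on day 2, 9 on days 3, 4, 7 and 17, and 8 on day 10, where Itgal was missed, all higher and none lower. Over all genes, the share called higher was 7.96% on day 1, 4.84% on day 2, 11.3% on day 3, 12.8% on day 4, 8.75% on day 7, 10% on day 10 and 11.5% on day 17. The shares called lower were 10.8%, 5.34%, 11%, 11.3%, 8.57%, 10.2% and 8.78% on the same days. Arrays of the 2 diets did not overlap, with CLA higher, for 5 of the 9 genes on day 1, for 8 on day 2 and for 9 on each later day. For all genes that share was 22.5% on day 1, 19% on day 2, 29.1% on day 3, 28.5% on day 4, 23.7% on day 7, 23.4% on day 10 and 30.1% on day 17. Without array 1 of control day 2, 8 of the 9 genes were called on day 2, against 7.51% of all genes, and Itgal was not (0.61, adjusted p = 0.091). The day 2 differences were then 2.27 in place of 1.49 for Itgam, 1.65 in place of 1.01 for Itgax, 2.50 in place of 1.75 for Itgb2, 1.38 in place of 0.94 for Itga4 and 0.90 in place of 0.81 for Itgav.

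**Figure D2:**
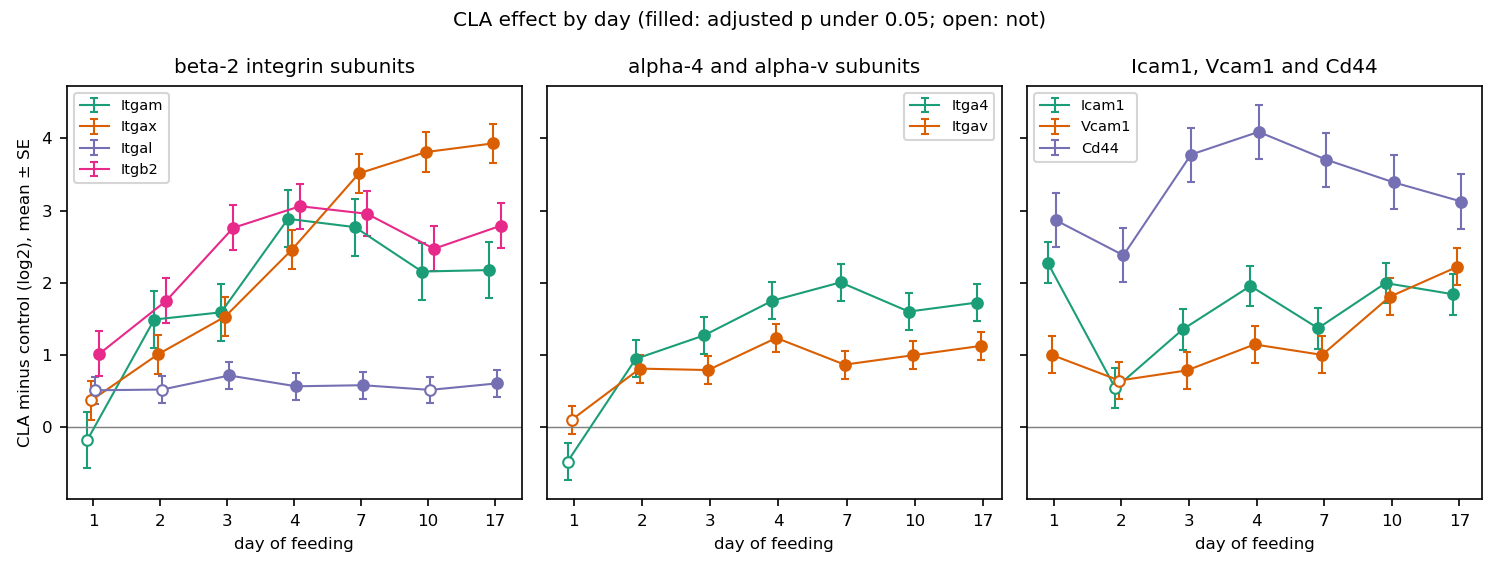
CLA minus control (log2, vertical axis) for each gene on each day of feeding (horizontal axis, days evenly spaced), with standard errors from the fit of all 28 arrays. Filled points passed an adjusted p of 0.05 and open points did not. Cd44 lay above 2.3 on every day, Icam1 started at 2.27, and Itgax climbed from 0.37 to 3.93.

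Signals from the 3′ and 5′ ends of control transcripts differed between days and diets, and their part in the 9 genes' values was not tested. The 3′ minus 5′ difference of the Actb control probe sets was 2.72 and 2.28 on the CLA arrays and 2.77 and 1.5 on the control arrays of day 1, against 0.77 to 1.44 and 1.1 to 1.87 on other days. Of the 4 arrays of day 1, control array 2 read like those of other days. The Gapdh difference on day 1 was 1.31 and 1.27 under CLA and 1.33 and 0.15 on control, against 0.32 to 1.2 and 0.15 to 1.04 later. Mean Actb differences were lower under CLA than on control on each day from day 2 on, such as 0.81 against 1.31 on day 4, and higher on day 1 (2.5 against 2.13).

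Some daily calls were lost when 1 array was left out, which changed the difference in some cases and in others left it much the same with fewer arrays to test it. The array left alone in its group is taken to vary like the other groups. On day 1, Itgb2 (1.01) lost its call at 0.82 without CLA array 2, and at 1.00 and 1.03 without control array 1 or 2 (adjusted p = 0.0897 and 0.0892). Vcam1 on day 1 lost its call without CLA array 1 (0.72, adjusted p = 0.119). On day 2, Itgam, Itgax, Itga4 and Itgav lost theirs without CLA array 2 (0.58 to 1.21) or without control array 2 (0.37 to 0.72), which left 2 of 9 genes called, and Itgax and Itga4 also without CLA array 1 (1.10 and 0.86). On day 3, 5 of 9 genes were left without control array 2, where Itgam was at 1.26, Itgal at 0.69, Itgav at 0.73 and Vcam1 at 0.78 (adjusted p 0.0525 to 0.127). With all arrays these were at 1.59, 0.71, 0.79 and 0.79, so that the value of Itgam moved more than those of the other 3 genes. Vcam1 on day 3 was also lost without control array 1 (0.79) or CLA array 2 (0.59), Itgal without CLA array 2 (0.63) and Itgam without CLA array 1 (1.41). Itgb2 and Cd44 kept their calls on days 2 and 3 without any of these arrays. On later days only Itgal, Itgav and Vcam1 lost a call. Itgal did so on day 4 without CLA array 1 or 2 or control array 1 (0.41 to 0.61), on day 7 without CLA array 2 or control array 2 (0.40 and 0.38), and on day 17 without CLA array 1 or control array 2 (0.47 and 0.34). Itgav and Vcam1 lost theirs on day 7 without CLA array 1 (0.76 and 0.89) or control array 2 (0.56 and 0.77). The calls of Icam1 on 6 days and of Cd44 on 7 days held without any array.

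The course over the days differed between the 2 diets for Itgam, Itgax, Itgb2, Itga4 and Vcam1. In these 5 of 9 genes the test of unequal daily differences passed, against 9.82% of all genes, with adjusted p-values of 0.0099 for Itgam, 1.25e-05 for Itgax, 0.0222 for Itgb2, 0.00133 for Itga4 and 0.038 for Vcam1. It did not pass for Icam1 (0.0653), Itgav (0.113), Cd44 (0.282) or Itgal (0.998). The error of this test is the spread between the 2 arrays of a group. These may share a pool, so differences from pool to pool are not measured and cannot be told apart from unequal effects of the diet. The call of Vcam1 was lost without each of 16 of the 28 arrays (adjusted p 0.0508 to 0.131). Those of Itgam and Itgb2 were lost without CLA array 1 of day 1 (0.0505 and 0.0937) or control array 2 of day 1 (0.0546 and 0.0688), and that of Itgb2 without control array 1 of day 1 (0.0624). Those of Itgax and Itga4 held without any array. Other genes gained a call: Cd44 without control array 1 (0.0194) or 2 (2.19e-05) of day 2, Icam1 without control array 2 of day 2 (0.00307) or of day 4 (0.0355), and Itgav without control array 1 or 2 of day 7 (0.044 and 0.0447). On the control diet alone, none of the 9 genes passed a limma test of change over the days, with 3 at an unadjusted p under 0.05, and 0.115% of all genes passed. Without control array 2 of day 2, which leaves the array that stood apart alone in its group, Itgax, Itgb2 and Cd44 passed.

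The same 5 genes had larger differences on days 7, 10 and 17 than on days 1, 2 and 3, tested against the same spread between arrays and not between pools. The later mean minus the earlier mean was 2.78 ± 0.22 for Itgax (adjusted p = 2.39e-07), 1.40 ± 0.32 for Itgam (0.00789), 1.20 ± 0.21 for Itga4 (9.01e-04), 0.90 ± 0.26 for Itgb2 (0.0309) and 0.86 ± 0.21 for Vcam1 (0.0114). This growth was called for 6.2% of all genes. It was 0.43 ± 0.16 for Itgav (0.104), 0.40 ± 0.31 for Cd44 (0.46), 0.35 ± 0.23 for Icam1 (0.391) and -0.01 ± 0.15 for Itgal (0.967). Cd44 was called without control array 2 of day 2 (0.74, adjusted p = 0.00213) and stood at 0.057 without control array 1 of that day, and Itgav was called without control array 1 of day 7 (0.53, adjusted p = 0.0295). The call of Itgb2 was lost without each of 11 arrays (0.81 to 0.90, adjusted p 0.0526 to 0.0615), and without control array 1 of day 2 it held at 0.65 (adjusted p = 0.021). The call depended on the earlier days taken. Measured from days 3 and 4, only Itgax still grew (1.76, adjusted p = 3.2e-04), Vcam1 was at 0.71 (0.11), and Itgb2 and Cd44 turned to -0.17 (0.851) and -0.53 (0.527). Measured from days 2 and 3, Itgax (2.48) and Vcam1 (0.96, adjusted p = 0.0217) were called.

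The other probe sets of the 5 genes that have more than 1 gave a rise for Itga4, Vcam1 and Cd44, in part for Itgav, and none for Itgal. In a fit of all 34945 probe sets that name 1 gene, probe sets 1434376_at and 1452483_a_at of Cd44 were higher by 3.30 and 3.02 over all days, close to the 3.33 of the probe set used, and 1443265_at was at -0.04 (adjusted p = 0.637). For Itga4, 3 of the other 4 probe sets were higher, by 0.78, 0.62 and 0.46, and 1427615_at was at -0.05 (0.608). Both other probe sets of Vcam1 were higher, by 0.49 and 0.46, less than the 1.23 of the probe set used. For Itgav, 1421198_at was higher by 0.47 (adjusted p = 0.024), and the other 3 were at -0.01, -0.06 and -0.04. The second probe set of Itgal, 1425367_at, was at 0.01 ± 0.07 (0.948), so the rise of Itgal rests on 1435560_at alone. The flat probe sets read low, with means of 4.09 for 1425367_at, 2.70 for 1443265_at, 2.54 for 1427615_at and 3.64, 2.95 and 2.57 for those of Itgav. Array medians were 4.1 to 4.2, and RMA compresses low signals, which limits what these probe sets can show. Of the probe sets that rose, 1450155_at of Itga4 also read low, with a mean of 3.28. Itgam, Itgax, Itgb2 and Icam1 have 1 probe set each.

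**Figure D3:**
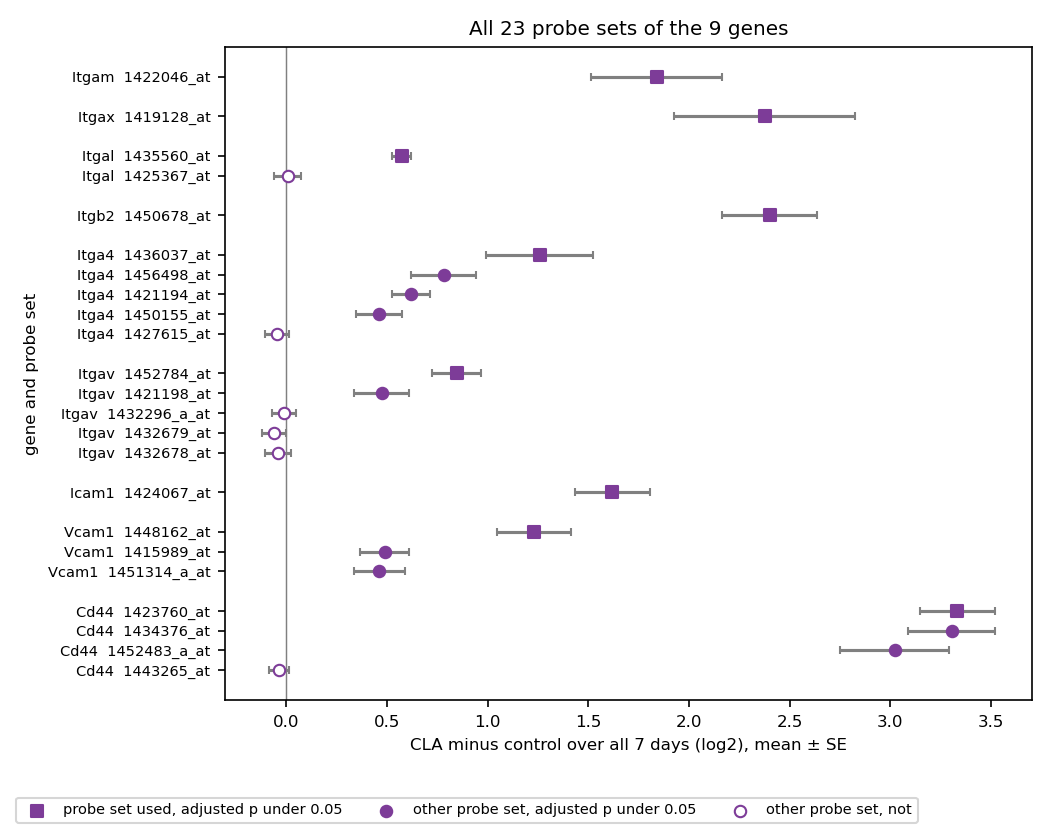
CLA minus control over all 7 days (log2, horizontal axis) with standard errors for each of the 23 probe sets (vertical axis). Squares are the probe sets used, circles the others, and open circles did not pass an adjusted p of 0.05. For Cd44 the 3 probe sets that passed lie at 3.02 to 3.33, while the second probe set of Itgal lies at 0.01.

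None of 7 differences between the rises of paired or related chains passed after adjustment, with 3 at an unadjusted p under 0.05. Differences of the CLA effect were compared over the 7 days with an exact sign-flip permutation test, two-sided, whose smallest possible p with 7 days is 0.01562. After adjustment over 7 pairs, a pair at this smallest p cannot pass on its own, so not passing does not show equal rises. Itgam rose less than its partner Itgb2 on 7 of 7 days, by 0.18 to 1.19 (mean -0.56; exact p = 0.01562, adjusted p = 0.0547). Itgal was below Itgb2 on 7 of 7 days (mean -1.83; exact p = 0.01562, adjusted p = 0.0547) and below Itgam on 6 of 7 (mean -1.27; exact p = 0.0312, adjusted p = 0.0729). Itgax lay below Itgb2 on the earlier 4 days and above it on the later 3, with a mean difference of -0.03 and a range of -1.23 to 1.34 (exact p = 0.922). Itgax minus Itgam averaged 0.53 (range -0.48 to 1.75; exact p = 0.188). Itga4 exceeded Itgav on 6 of 7 days (mean 0.41; exact p = 0.0781, adjusted p = 0.137), and Vcam1 minus Icam1 averaged -0.39 (range -1.27 to 0.38; exact p = 0.125). Probe sets can respond on different scales, which limits such differences.

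Over the 28 arrays the 36 pairs of the 9 genes correlated at 0.604 to 0.948, with a median of 0.808, a description of arrays that share diet, day and pooled tissue. Itgb2 was closest to Slc11a1 (0.995), a phagosome metal transporter, Lcp1 (0.991), the leukocyte plastin, and Sirpa (0.990), the myeloid receptor for CD47. Cd44 was closest to Basp1 (0.987), Fos (0.985) and Lgals3 (0.985), the last of which encodes galectin-3. Icam1 was closest to Ier5 (0.954), Tnfaip3 (0.949), an inhibitor of NF-kB signalling, and Ptx3 (0.945), and Vcam1 to Bmper (0.951), Glipr1 (0.938) and Aif1 (0.931). Itgax was closest to Cd72 (0.976), Pla2g7 (0.965) and Arhgap25 (0.962), and Itgam to Lrp12 (0.958), Galnt7 (0.957) and Gla (0.956). Itga4 was closest to Clec4a3 (0.978), Snx5 (0.974) and Themis2 (0.971), Itgav to Sap30 (0.971), Rab8b (0.954) and Cysltr1 (0.951), and Itgal to Zbp1 (0.872), Ms4a6b (0.865) and Sirpb1a (0.865). The nearest gene to Itgal was thus less like it than those of the other 8 genes were to theirs.

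The partner lists are read against the 18.7% of all genes that rose, the 19.8% that fell and the median of -0.03 over all 7 days. Of 18 other integrin subunits measured, 3 rose, near the share of all genes, and 7 fell (median 0.03). Itga5, the fibronectin receptor chain, rose by 0.85 ± 0.12 (adjusted p = 6.25e-04), while the collagen receptor chain Itga1 fell by 1.31 ± 0.13, the laminin receptor chain Itga7 by 0.82 ± 0.17 and Itgb5, a partner of the alpha-v chain, by 0.56 ± 0.12. The beta-1 partner of the alpha-4 and alpha-v chains, Itgb1, rose by 0.28. Of 15 other vascular adhesion molecules and selectins, 3 rose, near the share of all genes, and 5 fell (median -0.03). Selplg, the leukocyte ligand of P-selectin, rose by 1.60 ± 0.25 (adjusted p = 9.92e-04) and Cd47 by 0.91 ± 0.08, while the endothelial molecule Pecam1 fell by 0.85 ± 0.16 and Cd99l2 by 0.89 ± 0.05. Icam4, the neighbour of Icam1 on the chromosome, was at 0.09 and not called.

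Of 20 genes of integrin activation and signalling, 13 rose and 5 fell (median 0.59). Those that rose most were Fyb (2.82 ± 0.29), an adaptor of integrin activation, Fermt3 (2.27 ± 0.27), the blood cell kindlin that binds integrin beta tails, and Syk (1.74 ± 0.28), a kinase downstream of beta-2 integrins. Tln2, a talin of non-blood tissues, fell by 1.72 ± 0.14 (adjusted p = 4.15e-05). Among 13 matrix ligands of integrins and CD44, 5 rose and 1 fell (median 0.28). Tgfb1, whose latent form alpha-v integrins bind, rose by 1.67 ± 0.20, Thbs1 by 1.64 ± 0.31, Tnc by 1.16 ± 0.17 and Postn by 1.10 ± 0.24. Vtn, the vitronectin gene, fell by 0.90. Of 11 genes that make, break or bind hyaluronan, the ligand of CD44, 5 rose and none fell (median 0.36). Hmmr, which also binds hyaluronan and is a mitotic gene, rose by 2.22 ± 0.27, Tnfaip6 by 1.33 ± 0.25, Stab2 by 1.18 ± 0.37 and Stab1 by 1.08 ± 0.24. The hyaluronan synthases Has1 and Has2 were at 0.08 and 0.06 and not called.

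**Figure D4:**
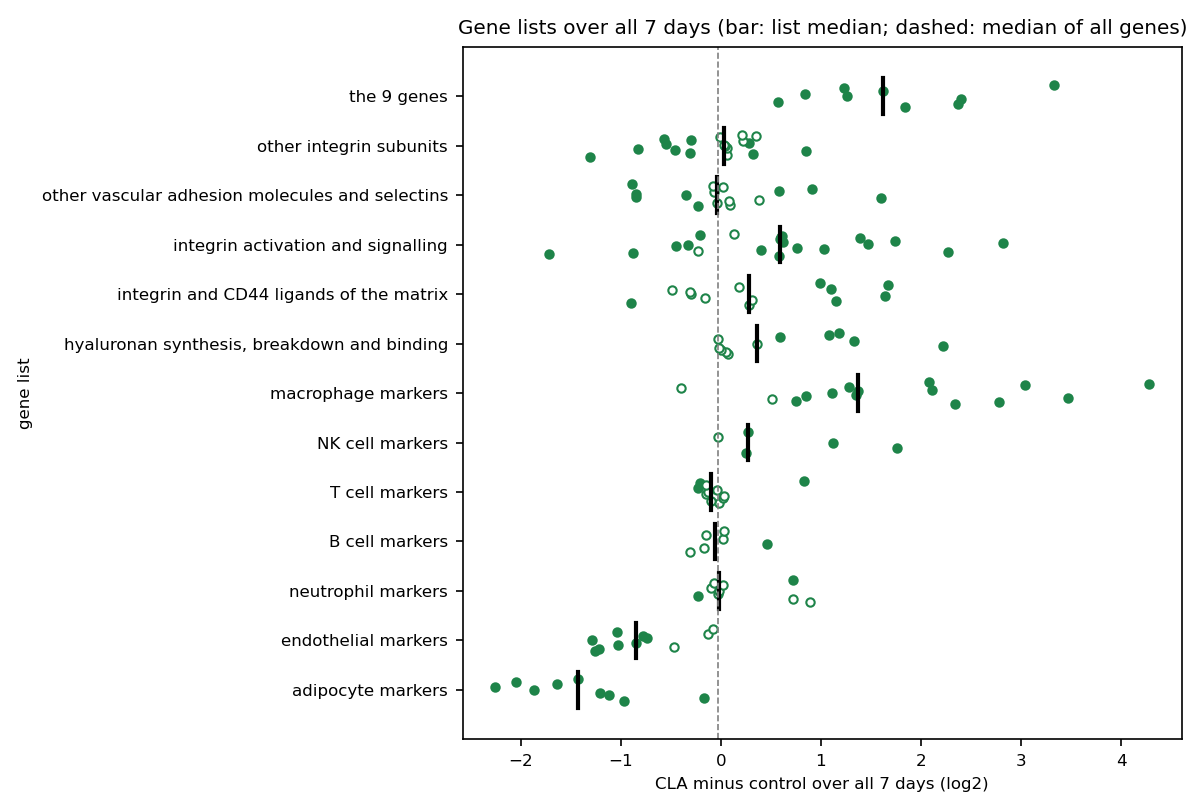
CLA minus control over all 7 days (log2, horizontal axis) for each measured gene of each list (vertical axis). Filled points passed an adjusted p of 0.05, open points did not, short bars are list medians and the dashed line is the median of all genes. The 9 genes have a median of 1.62 and the macrophage markers of 1.37, while endothelial and adipocyte markers have medians of -0.84 and -1.43.

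Markers of macrophages, which carry many of the 9 proteins, rose alongside them. Of 15 macrophage markers 13 rose and none fell over all days (median 1.37), led by Gpnmb (4.28 ± 0.69) and Fcgr1 (3.47 ± 0.26). Their summed level was 13.01 to 13.17 on the CLA arrays of day 1, 14.90 to 15.06 on day 4 and 15.29 to 15.32 on day 17, against 12.88 to 13.61 on the 14 control arrays. On day 1, when Icam1 and Cd44 were up 4.84-fold and 7.29-fold, 3 of the 15 macrophage markers were called higher, against 7.96% of all genes. On days 3 and 4, 11 and 12 of them were called higher, against 11.3% and 12.8% of all genes. On each of these days 1 was called lower. On each of days 7, 10 and 17, 14 of the 15 were called higher and none lower. The shares of all genes called higher were then 8.75%, 10% and 11.5%. For 12 of the 15 the difference was called larger on days 7, 10 and 17 than on days 1, 2 and 3, against 6.2% of all genes. Over the 28 arrays the macrophage gene Adgre1 correlated at 0.964 with Itga4, 0.949 with Itgb2, 0.923 with Itgax, 0.917 with Itgav, 0.914 with Itgam, 0.850 with Vcam1, 0.833 with Cd44, 0.697 with Itgal and 0.656 with Icam1. The macrophage gene Cd68 lay at 0.665 to 0.967, the endothelial gene Cdh5 at -0.782 to -0.613 and the adipocyte gene Adipoq at -0.922 to -0.677. In size, Adipoq exceeded Adgre1 for Cd44 (-0.922), Icam1 (-0.879) and Itgal (-0.744), and Adgre1 exceeded Adipoq for the other genes. In pooled tissue, more cells of a type and more RNA per cell cannot be told apart.

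Markers of other leukocytes were counted over all days, and those of mast cells, neutrophils and NK cells are also given by day. No test compared the lists. Of 7 mast cell markers 1 rose over all days, with Cpa3 at 0.74 and Cma1 at 0.53 not called. By day, none of the mast cell markers was called higher on days 1 to 4, and 1 was called lower on day 2 and 1 on day 3. On day 7, 3 were called higher, on day 10 4 and on day 17 5 (median 1.53), against 8.75%, 10% and 11.5% of all genes. Of the 7 mast cell markers, 6 had larger differences on days 7, 10 and 17 than on days 1, 2 and 3, against 6.2% of all genes. Their summed level on day 17 was 10.54 to 10.56 under CLA and 8.48 to 8.55 on control. Itgax and Vcam1 had their largest differences on that day, and the macrophage markers their largest median (2.255). Of 9 neutrophil markers 1 rose over all days (Csf3r, 0.73) and 1 fell (Elane, -0.23). On day 1, the day of the largest Icam1 difference, 3 were called higher, against 7.96% of all genes. On day 4, 1 was called higher and 1 lower. The neutrophil sum was 9.44 to 9.77 under CLA and 7.43 to 7.62 on control on day 1, and 9.59 to 9.76 under CLA on day 2, with the control arrays of that day at 7.57 and 9.62. From day 3 on it was 7.32 to 8.66 under CLA, and the highest control array read 9.20, on day 7. Of 5 NK cell markers 4 rose over all days, led by Klrd1 (1.76 ± 0.23) and Gzma (1.12 ± 0.24). None of the 5 was called on days 1 and 2. On days 3, 4 and 10, 2 were called higher, against 11.3%, 12.8% and 10% of all genes. On day 7 the count was 4, against 8.75%, and on day 17 it was 1, against 11.5%. The NK cell sums were 7.10 to 9.38 under CLA, 7.16 and 8.52 on control day 2 and 6.68 to 7.30 on the other control days. Of 11 markers of T cells, which also carry LFA-1 and alpha-4 integrins, 1 rose and 2 fell (median -0.10; Cd28 0.83 ± 0.19 and Zap70 -0.23 ± 0.07), and their summed level was 8.07 to 8.43 under CLA and 8.14 to 8.57 on control. Among 6 B cell markers 1 rose (Cd79b at 0.46, with Cd79a at -0.17). Of 6 dendritic cell markers 2 rose (Batf3, 0.71, among them) and 1 fell (Cd209a, -0.56). The mean level on an array was 4.14 to 4.46 for the T cell markers and 3.41 to 4.03 for the B cell markers. Array medians were 4.1 to 4.2, and RMA compresses low signals, which limits what the T and B cell lists can show.

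Markers of endothelium, a cell type that displays VCAM-1 and ICAM-1, were lower over all 7 days, while Vcam1 and Icam1 were higher. Of 11 endothelial markers 8 fell and none rose (median -0.84), among them Cldn5 (-1.28 ± 0.27) and Cdh5 (-1.26 ± 0.21). The summed level of the 11 markers was 9.62 to 10.87 under CLA and 10.43 to 11.19 on control. On day 1, the day of the largest Icam1 difference, 1 was called lower (median -0.28), against 10.8% of all genes. The count was 3 on day 2, 8 on day 3, 9 on days 4 and 7, 6 on day 10 and 5 on day 17. The shares of all genes on these later days were 5.34%, 11%, 11.3%, 8.57%, 10.2% and 8.78%. All 9 adipocyte markers fell (median -1.43), with Slc2a4 at -2.25 ± 0.12 and Lipe at -2.04 ± 0.17. Of 7 progenitor and fibroblast markers 1 rose (Col1a1, 0.59) and 1 fell (Pi16, -0.43) over all days, and 2 were called lower on day 3. Of these markers, 1 was called higher on day 7, 2 on day 10 and 4 on day 17 (median 1.05), against 8.75%, 10% and 11.5% of all genes. Their summed level on day 17 was 14.09 to 14.29 under CLA and 13.15 to 13.17 on control. Of 6 mesothelial markers 4 fell, Upk3b (-0.62) and Krt19 (-0.59) among them. No marker is listed at 0. The part of these shifts in cell markers in the levels of the 9 genes was not tested.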

How the data were processed

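Gene expression was measured on 28 Affymetrix arrays in 14 groups, 2 diets by 7 days, with 2 arrays each. The authors deposited log2 values of 45101 probe sets made with RMA (robust multi-array average), per the submitters' processing notes; the tool's version is not given in the sources used here. RMA normalises across arrays, so a shift shared by most genes is removed, and it compresses low signals. Of the probe sets, 64 are controls, 34945 name 1 gene (34741 matched RefSeq by gene ID), 932 several and 9160 none. Each of 18193 genes was read from its probe set with the highest mean, and no filter on low values was applied.

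Daily contrasts, later minus earlier days and F tests came from limma 3.58.1 in R 4.3.3 on all 28 arrays (14 residual degrees of freedom), and the comparison over all 7 days from the 14 group means with day as a block (6 residual degrees of freedom). P-values were two-sided and Benjamini-Hochberg adjusted over all genes, with calls under 0.05. Scripts were tested on simulated data. Sequences were read in Python 3.11.15, and figures drawn with matplotlib 3.10.9. All 9 genes are named, with the 4 called genes of largest change per partner list, the 2 per marker list (where fewer passed, the 2 of highest level) and the 3 nearest genes by correlation. Itgb1, Icam4, Vtn, Has1, Has2, Adgre1, Cd68 and Adipoq were added after their values were seen. The genes and lists were chosen with earlier results of these data known. Alternatives included other normalisation, probe set choice, a filter at a mean of 5, a replicate block and leaving out each array, whose number limits the precision.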

Additional observations from a re-analysis of the deposited data

Results flagged for a closer look

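For 5 of the 9 genes the CLA effect differed between days by the test of unequal daily differences (limma F test, adjusted over all genes): Itgam (adjusted p = 0.0099), Itgax (1.25e-05), Itgb2 (0.0222), Itga4 (0.00133) and Vcam1 (0.038). Of all genes, 9.82% passed this test. Its error is the spread between arrays that may share a pool, so differences from pool to pool are not measured. The call of Vcam1 was lost without each of 16 of the 28 arrays. Those of Itgam and Itgb2 were lost without single arrays of day 1, and those of Itgax and Itga4 held whichever array was left out. For Itgam and Itga4 the daily difference was below 0 on day 1 and above 0 on the 6 later days. For Itgb2 it was above 0 on all 7 days and smallest on day 1. Itgax and Vcam1 had their largest difference on day 17.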

How the results depend on the processing

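The rise of each of the 9 genes over all 7 days was called in 45 of 45 settings. Differences were as low as 0.24 for Itgav and 0.29 for Itgal where all probe sets of a gene, those of low level included, were averaged. Of 3573 alternative values for 99 results on the 9 genes, 3452 kept direction and call, 81 lost the call, 23 gained it and 17 turned in sign. Most of these settings leave out 1 array. For the result of a day, an array of another day cannot change the difference, only the spread it is tested against. The count of values kept therefore overstates how firm the daily calls are. Leaving out 1 array gave 3 to 5 genes called on day 1, 2 to 8 on day 2, 5 to 9 on day 3, 8 to 9 on day 4, 6 to 9 on day 7, 8 to 9 on days 10 and 17, 4 to 6 for later minus earlier days, 2 to 7 for unequal daily differences, 0 to 3 on the control diet by day and 9 over all days; the groups concerned then hold a single array. With the earlier days changed after the data were seen, 1 gene was called against days 3 and 4 and 2 against days 2 and 3, and against days 3 and 4 Itgb2 (-0.17), Itgav (-0.018) and Cd44 (-0.53) turned in sign. Averaging all probe sets turned the uncalled day 1 values of Itga4 to 0.018 and Itgav to -0.036, and took the call from Itgav on days 2, 3, 7, 10 and 17 (0.20 to 0.29), from Itgal on days 7 and 17 (0.25 and 0.25), from Itga4 on day 2 (0.39) and from Vcam1 on day 3 (0.37). Other uncalled values that turned in sign were later minus earlier days for Itgal (0.025 with arrays centred on their medians, -0.10 to 0.073 leaving out 1 array), Itgam on day 1 (-0.68 to 0.32 leaving out 1 array), Itgav on day 1 (-0.03 to 0.23), Icam1 on day 2 (-0.005 to 1.08) and Itgax minus Itgb2 (-0.11 to 0.057 leaving out array 1 or 2 of each group). Some calls over all 7 days of other named genes were lost too: Pi16 in 16 of 45 settings, Elane in 15 of 44 and Zap70 in 14 of 45. Col1a1 lost its call in 11 of 45, Batf3 in 6 of 45, Stab2 in 5 of 44, Cd79b in 3 of 44 and Pecam1 in 1 of 45. Cpa3 and Cma1 each gained a call in 2 of 45. The causes of these changes were not tested.

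Replicate numbers are shared by the groups but were not taken as pairs: the deviations of same-numbered arrays of the 2 diets correlated at 0.566 on day 1, 0.49 on day 2, 0.228 on day 3, 0.115 on day 4, 0.0977 on day 7, 0.345 on day 10 and 0.101 on day 17, positive on all 7 days but not over 0.1 on each, and all 14 groups lay nearer their own number. With the replicate block, 9 of 9 genes were called on day 10 (Itgal gained, adjusted p = 0.0458) and 6 for unequal daily differences (Icam1 gained, adjusted p = 0.0473), the other counts were the same, and counts over all genes rose by 1.13 to 1.71 times. For the control diet by day those counts were 21 without the block and 36 with it.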
